A study of Sus scrofa with 12 samples.

Results

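MBP, MOBP, MOG and OLIG2 were examined as the myelin and oligodendrocyte genes of pig hypothalamus: 4 of the 13755 gene symbols on the array, read by 14 of its 26426 probe sets with a symbol. Every probe set whose platform symbol was one of the 4 was taken, whatever its values, which gave 6 for MBP, 4 for MOG, 2 for MOBP and 2 for OLIG2. RNA of 12 pigs (Sus scrofa), all aged 140 days, was hybridised to 12 Affymetrix Snowball arrays, 1 per pig. The labels put 6 pigs in the low feed efficiency group and 6 in the high feed efficiency group, with 3 females and 3 males in each. Nothing on breed, castration, litter or the way the hypothalamus was cut out was found in the labels. The deposited values were taken as log2 signal, and every level below is in that unit.

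Myelin is the lipid-rich sheath that oligodendrocytes wrap around axons in the brain and spinal cord, and white matter is tissue rich in it. MBP (myelin basic protein) holds the inner faces of the membrane together in compact myelin, and MOBP (myelin-associated oligodendrocyte basic protein) is a small basic protein of the same compact layers. MOG (myelin oligodendrocyte glycoprotein) sits on the outermost surface of the finished sheath, whereas OLIG2 is a transcription factor that specifies the oligodendrocyte lineage and is made in precursors as well as in mature cells. Fibre tracts such as the fornix run through the hypothalamus. In whole tissue, fewer oligodendrocytes and less myelin RNA per oligodendrocyte cannot be told apart.

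The 12 arrays were alike as wholes: their medians ran from 4.35 to 4.42, and the correlation between any pair of arrays over 47722 probe sets lay between 0.974 and 0.982. Precision is limited by the number of arrays, since the table holds no counts. The tissue label was checked against 11 hypothalamic neuropeptides and factors, whose means ran from 4.65 to 11.80. OXT at 11.80 and AVP at 11.55, the neuropeptides oxytocin and vasopressin, were the brightest and are named after their values were seen. The 69 background probe sets had means from 1.3 to 7.49, so a level below 7.49 could not be set apart from background by its height. Of the 11 hypothalamic genes, AGRP, SIM1, NKX2-1 and GHRH, at 4.65 to 6.42, lay inside the background range. The Schwann cell genes PRX, EGR2, PMP2 and CDH19, which mark myelin of peripheral nerve, had means of 3.25 to 4.99, inside that background range.

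The transcripts of the 3 myelin proteins gave signals near the top of the array. The brightest MBP probe set, SNOWBALL_021273_s_st, averaged 12.24 ± 0.10 (SD, n = 12) and stood at rank 60 of 47722, with 0.124% of probe sets above it. On the single arrays its rank lay between 54 and 73. With every gene read by its brightest tested probe set, MBP took place 11 of 12609 named genes.

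MOG followed with SNOWBALL_001056_s_st at 11.46 ± 0.18 (SD, n = 12), rank 129, and place 41 among the named genes. MOBP had both of its probe sets in the brightest 1% of the array. SNOWBALL_029596_st averaged 10.52 ± 0.30, which was rank 303, and SNOWBALL_015242_st averaged 10.37 ± 0.15, which was rank 342 (SD, n = 12 each). Their ranges overlapped, and whether these neighbours in the order differed within pigs was not tested. OLIG2 lay far lower: SNOWBALL_016064_st averaged 7.58 ± 0.13 (SD, n = 12), rank 4560, just above the background range and place 2540 among the named genes. The ranges of the brightest probe sets of MBP, MOG, MOBP and OLIG2 over the 12 pigs did not overlap one another. These ranks describe array signal only, because probe sets differ in how strongly their probes bind, and a higher signal of 1 gene does not show more transcript than another gene has.

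The remaining probe sets spread widely below these. MBP was also read above the background range by SNOWBALL_020904_st, at 9.24 ± 0.33, and by SNOWBALL_028905_st, at 8.27 ± 0.20 (SD, n = 12 each). Its other 3 probe sets averaged 7.06, 4.51 and 4.11. The 3 dimmer MOG probe sets averaged 5.21, 5.09 and 4.69, and the dimmer OLIG2 probe set, SNOWBALL_028139_st, averaged 3.79. Hence 7 of the 14 member probe sets lay above the background range, and the other 7 lay inside it. All 14 passed the filter on dim probe sets, whose limit was a mean of 2.43 over all 12 arrays. Which transcripts or exons each probe set reads was not analysed here.

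Low and high feed efficiency pigs were compared first in the compact myelin genes. The brightest MBP probe set had a lowest, median and highest signal of 12.03, 12.24 and 12.38 in the 6 low feed efficiency pigs, against 12.16, 12.23 and 12.34 in the 6 high feed efficiency pigs. The low pigs thus spanned the whole range of the high pigs. The difference, low minus high, was -0.01 ± 0.08 (SE) with an adjusted p of 0.981 by limma, and it became 0.01 when the arrays were set to equal medians.

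SNOWBALL_020904_st, the second MBP probe set by signal, read 8.89, 9.23 and 9.75 (lowest, median and highest) in low pigs and 8.77, 9.09 and 9.70 in high pigs. SNOWBALL_028905_st read 8.02, 8.33 and 8.61 in low pigs and 7.91, 8.25 and 8.46 in high pigs. Both groups covered nearly the same span in each, and the differences of 0.11 ± 0.18 and 0.05 ± 0.12 (SE) did not pass the test (limma, adjusted p = 0.928 and 0.951).

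MOBP behaved likewise. Its brighter probe set read 9.89, 10.69 and 10.88 in low pigs, against 10.16, 10.50 and 10.82 in high pigs, and the other read 10.18, 10.45 and 10.62 in low pigs, against 10.17, 10.38 and 10.39 in high pigs. The groups overlapped in both, with the low group holding the lowest and the highest value of the brighter one. The differences were 0.05 ± 0.14 and 0.09 ± 0.09 (SE), with adjusted p of 0.958 and 0.867 by limma.

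MOG, on the sheath surface, showed the widest gap among the bright probe sets. It read 11.10, 11.32 and 11.65 in low pigs, against 11.43, 11.56 and 11.69 in high pigs. Of the low pigs, 4 lay below every high pig and the other 2 lay within the high range. The difference of -0.19 ± 0.10 (SE) corresponds to a fold of 0.878, with a 95% interval from 0.754 to 1.02, and it did not pass the test over all probe sets (limma, adjusted p = 0.813). Without low feed efficiency replicate 4, the pig with the lowest MOG signal, it was -0.13 with an adjusted p of 0.829.

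OLIG2 read 7.39, 7.50 and 7.78 in low pigs and 7.45, 7.66 and 7.78 in high pigs. Of the low pigs, 5 lay below 5 of the high pigs, and the groups overlapped through 1 pig of each. The difference was -0.11 ± 0.08 (SE) with an adjusted p of 0.835 by limma.

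**Figure D1:**
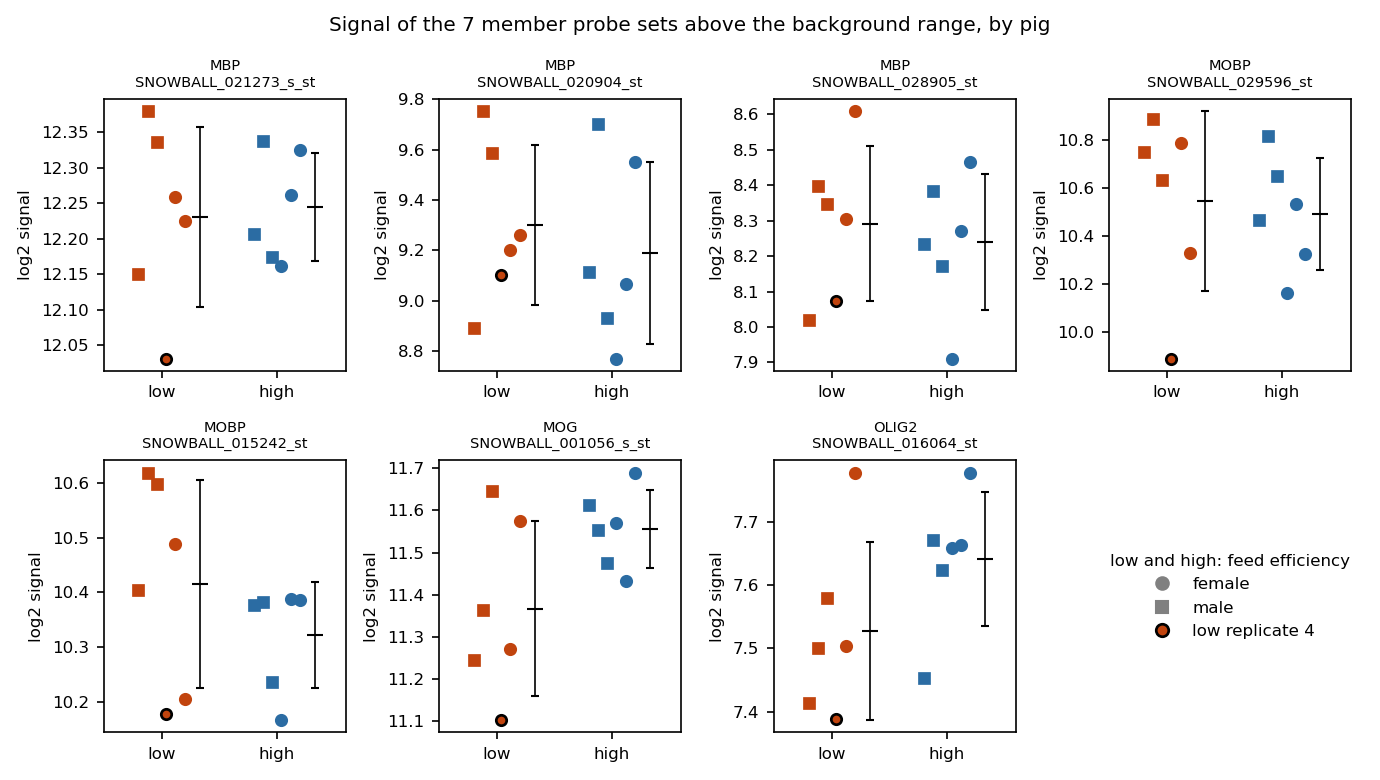
Log2 signal (vertical axes, 1 scale per panel) of the 7 member probe sets above the background range, with low feed efficiency pigs on the left and high feed efficiency pigs on the right of each panel. Each point is a pig (circles female, squares male, black outline low feed efficiency replicate 4) and bars give the mean ± SD of 6 pigs. Low and high pigs overlap in every panel, and the outlined pig is the lowest of all 12 for the brightest probe set of each gene.

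Over the 14 member probe sets, 0 passed an adjusted p of 0.05 between the feed efficiency groups, where the share called among all 35791 tested probe sets was 0%. At an unadjusted p under 0.05 there was 1 of 14, where the share among all tested probe sets was 6.15%. Of the 14 differences, 6 were above 0 and 8 below, with a median of -0.06, against a median of -0.002 over all tested probe sets. For the 7 probe sets above the background range, every 95% interval of the fold of low over high lay between 0.754 and 1.43. A 1.5-fold difference in array signal in either direction was thus outside all 7. These intervals take both sexes together and are not adjusted for their number. Within males and within females 6 of the 7 intervals excluded 1.5-fold, with upper bounds reaching 1.69 and 1.58. The 1 probe set under the unadjusted threshold was SNOWBALL_029083_st, the dimmest of MBP. It read 4.12, 4.31 and 4.48 in low pigs and 3.49, 3.86 and 4.25 in high pigs, a difference of 0.43 ± 0.14 (SE) with an adjusted p of 0.764 by limma. No brighter MBP probe set showed a difference of this size.

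**Figure D2:**
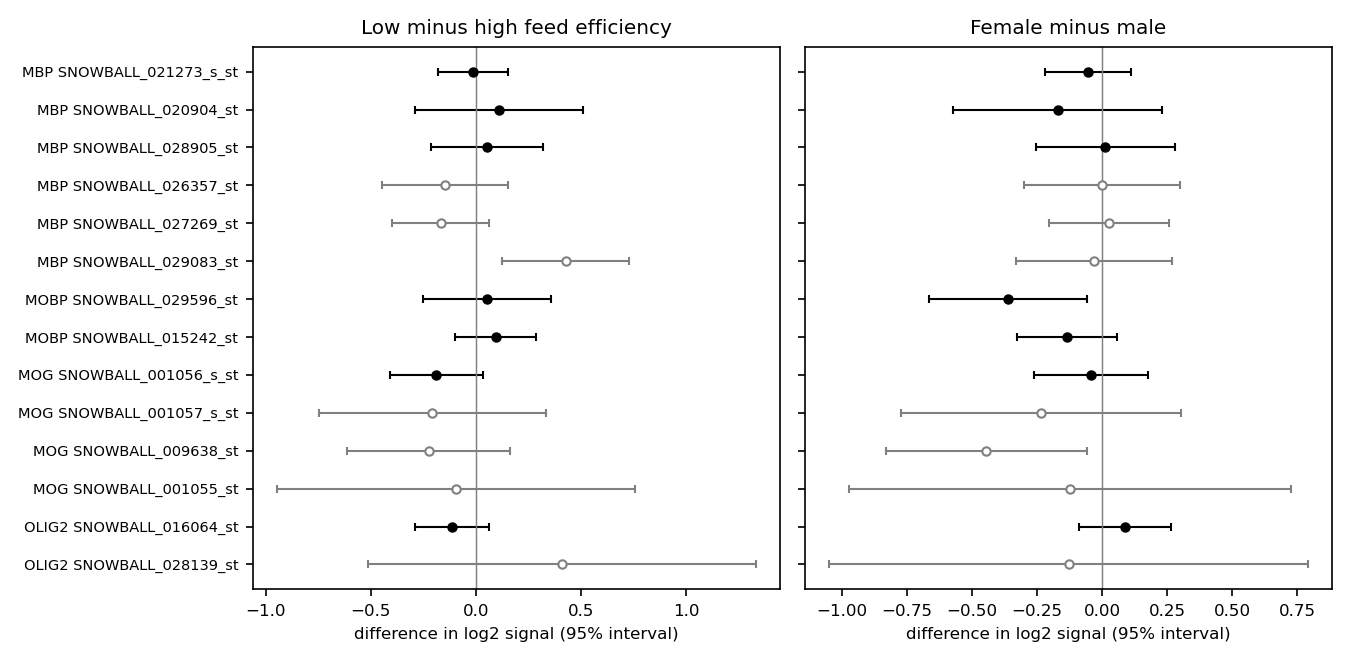
Difference in log2 signal with its 95% interval (horizontal axes) for the 14 member probe sets, as low minus high feed efficiency (left) and as female minus male (right). Filled points are the 7 probe sets above the background range and open grey points the 7 inside it. The intervals of the bright probe sets cross 0, except for 1 MOBP probe set between the sexes.

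Females and males were compared in the same fit. All 6 males and 2 of the 6 females carry identifiers from 1 run of numbers, and the other 4 females from another. Sex and run thus could not be fully told apart, and no sex difference with the run as a term is given. For SNOWBALL_029596_st of MOBP, females averaged 10.34 ± 0.31 and males averaged 10.70 ± 0.15 (SD, n = 6 each). The 4 lowest females, at 9.89 to 10.33, lay below all 6 males, while the other 2 females, at 10.53 and 10.79, overlapped the males. The difference was -0.36 ± 0.14 (SE) with an adjusted p of 0.996 by limma, and it was -0.26 without low feed efficiency replicate 4. Its partner probe set SNOWBALL_015242_st differed by -0.13 ± 0.09 (SE), with an adjusted p of 0.996. The share of all tested probe sets called between the sexes was 0.0224%, and 0 of the 14 member probe sets were among them. At an unadjusted p under 0.05 there were 2 of 14, the brighter MOBP probe set and SNOWBALL_009638_st of MOG, where the share over all tested probe sets was 4.74%. The brightest probe sets of MBP, MOG and OLIG2 differed by -0.05 ± 0.08, -0.04 ± 0.10 and 0.09 ± 0.08 (SE), female minus male, each with an adjusted p of 0.996 by limma. The MOG value turned to 0.01 without low feed efficiency replicate 4.

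Whether the feed efficiency difference was the same in both sexes was tested as an interaction. No member probe set was called, where the share called over all tested probe sets was 0%, and 2 of 14 had an unadjusted p under 0.05, where the share was 6.07%. Both lay inside the background range. SNOWBALL_009638_st of MOG read 4.33 to 4.83 in the 3 low females and 5.15 to 5.27 in the 3 high females. In males it read 5.22 to 5.71 in the 3 low pigs and 4.94 to 5.38 in the 3 high pigs. The interaction was -0.91 ± 0.24 (SE) with an adjusted p of 0.779 by limma. The second was SNOWBALL_027269_st of MBP, with -0.42 ± 0.18 (SE) and an adjusted p of 0.810. The brightest MOG probe set had an interaction of -0.12 ± 0.21 (SE), with an adjusted p of 0.962.

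Probe sets of 1 gene were then set against each other across the 12 pigs. There were 23 such pairs, of which 16 correlated above 0, and 4 passed a permutation test after Benjamini-Hochberg adjustment over the 23. Of those 4, 3 joined probe sets above the background range, and the other held SNOWBALL_026357_st, which lay inside it. The brightest MBP probe set and SNOWBALL_020904_st had a Pearson r of 0.810 and a Spearman rho of 0.853 (permutation p = 0.0014 and 0.00089, adjusted p of r = 0.0322). SNOWBALL_028905_st of MBP went with SNOWBALL_020904_st at r = 0.738 and with SNOWBALL_026357_st at r = 0.761 (permutation test, adjusted p = 0.0385 each). The 2 MOBP probe sets had r = 0.734 and rho = 0.720 (permutation p = 0.00669 and 0.0105, adjusted p of r = 0.0385). Leaving out the 2 pigs farthest from the median of the brighter probe set, r for these 4 pairs was 0.945, 0.767, 0.843 and 0.557 in the same order.

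The size of the swing differed between probe sets that agreed. Over the 12 pigs SNOWBALL_020904_st had an SD of 0.33, against 0.10 for the brightest MBP probe set, and SNOWBALL_029596_st had an SD of 0.30, against 0.15 for SNOWBALL_015242_st. The size of a difference between pigs in MBP or MOBP thus depended on the probe set read. The 6 MOG pairs correlated between 0.138 and 0.543 and none passed. The OLIG2 pair ran the opposite way, with r = -0.557 and rho = -0.601 (permutation p = 0.0618 and 0.0422, adjusted p of r = 0.149). SNOWBALL_028139_st, its dimmer member, had an SD of 0.78 at a mean of 3.79, inside the background range.

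**Figure D3:**
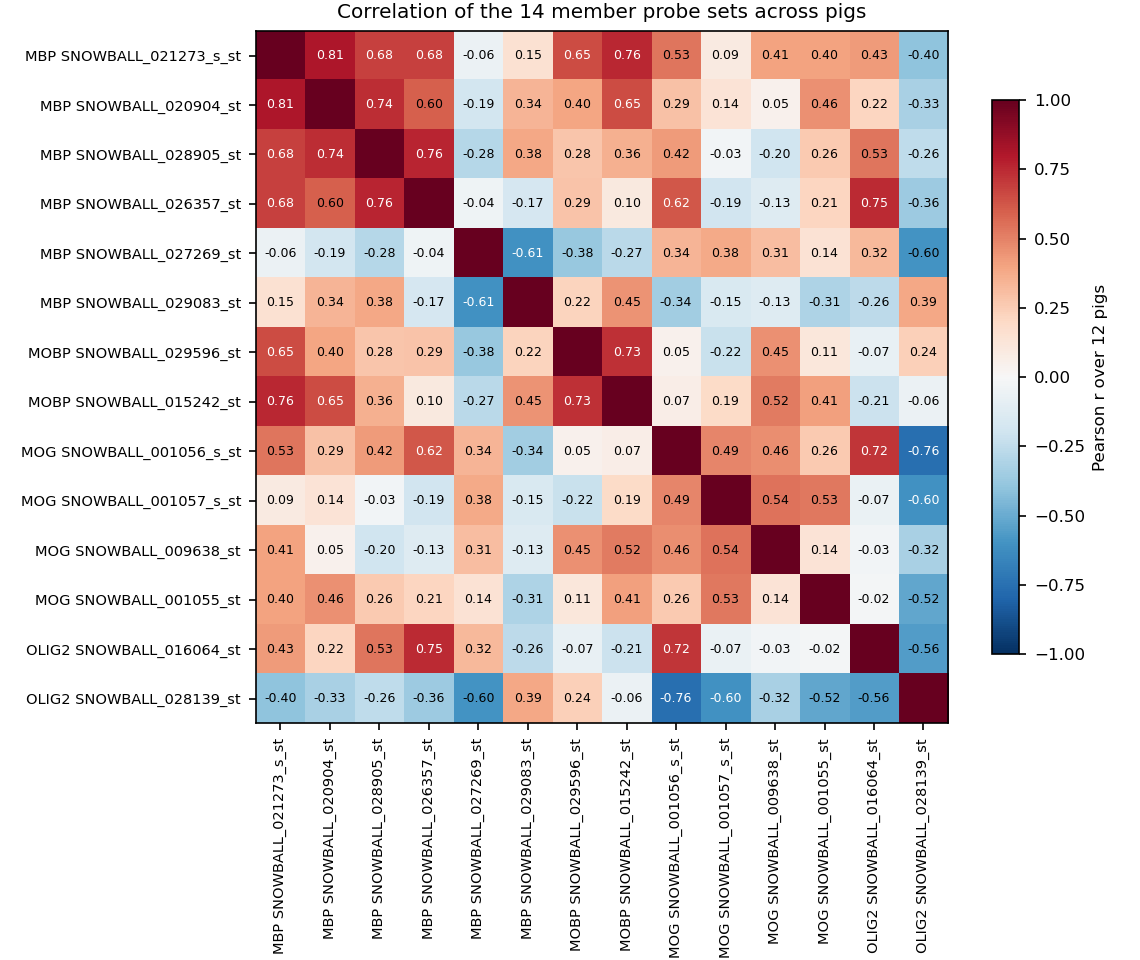
Pearson r over 12 pigs between the 14 member probe sets, with genes in blocks and the brightest probe set of each gene first; red is above 0 and blue below. The 4 brightest MBP probe sets and the 2 MOBP probe sets form blocks of positive r, whereas the dimmer OLIG2 probe set is below 0 against the brightest MBP, MOG and OLIG2 probe sets.

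The 4 genes were next compared with one another, each by its brightest probe set, to see how far they moved as 1 measure of white matter. None of the 6 pairs passed the permutation test after adjustment over the 6. MOG and OLIG2 were the closest, with r = 0.716 and rho = 0.601 (permutation p = 0.00989 and 0.0423, adjusted p = 0.0593 and 0.201). MBP and MOBP came next, with r = 0.655 and rho = 0.552 (permutation p = 0.0203 and 0.0671, adjusted p = 0.0610 and 0.201). MBP and MOG had r = 0.534 and rho = 0.378 (permutation p = 0.0727 and 0.226, adjusted p = 0.145 and 0.339).

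The other 3 pairs were weaker. MBP and OLIG2 had r = 0.428 and rho = 0.427 (permutation p = 0.163 and 0.168, adjusted p = 0.245 and 0.336). MOBP showed no positive relation with the surface gene MOG, at r = 0.045 and rho = -0.280 (permutation p = 0.888 and 0.378, adjusted p = 0.888 and 0.454). MOBP and OLIG2 had r = -0.071 and rho = -0.112 (permutation p = 0.830 and 0.733, adjusted p = 0.888 and 0.733). As background, 0.313% of all tested probe sets correlated with the brightest MOG probe set as highly as OLIG2 did, and 1.1% correlated with MBP as highly as MOBP did.

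Within the groups the values were uneven. MOG and OLIG2 had r = 0.819 in the 6 low pigs and 0.129 in the 6 high pigs (exact permutation p = 0.0333 and 0.840). In the 6 females their r was 0.962 and in the 6 males 0.496 (exact permutation p = 0.00833 and 0.314). MBP and MOBP had r = 0.769 in low pigs and 0.393 in high pigs, and 0.751 in females and 0.513 in males (exact permutation p = 0.0736, 0.440, 0.0889 and 0.285). A difference in r between groups was not tested.

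The pig identifiers fall into 2 runs of numbers, 1 of 8 pigs and 1 of 4 females, and what the runs stand for is not given in the labels. In the run of 8, r was 0.785 for MBP and MOBP and 0.697 for MOG and OLIG2 (exact permutation p = 0.0180 and 0.0598), and the other run held too few pigs for a value.

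For each pair, the 2 pigs farthest from the median of the first gene named were then left out. In this setting r fell to 0.467 for MOG and OLIG2, 0.217 for MBP and MOBP, 0.448 for MBP and MOG, and 0.396 for MBP and OLIG2. For MOBP it became -0.661 with MOG and -0.604 with OLIG2. The r of MBP with MOBP and of MOG with OLIG2, neither of which had passed after adjustment, was thus lower without those pigs. Dropping the extremes of 1 gene also narrows its range, which can itself lower r. Low feed efficiency replicate 4, a female, was the lowest pig for the brightest probe set of all 4 genes. Of the 7 member probe sets above the background range 4 were lowest in that pig and the other 3, SNOWBALL_020904_st and SNOWBALL_028905_st of MBP and SNOWBALL_015242_st of MOBP, were lowest in high feed efficiency replicate 4, also a female. The median deviation of the 7 from their means was -0.195 in low feed efficiency replicate 4 and -0.203 in high feed efficiency replicate 4. Without low feed efficiency replicate 4 alone r was 0.616 for MOG and OLIG2, 0.393 for MBP and MOBP, 0.219 for MBP and MOG, 0.187 for MBP and OLIG2, -0.626 for MOBP and MOG and -0.573 for MOBP and OLIG2.

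**Figure D4:**
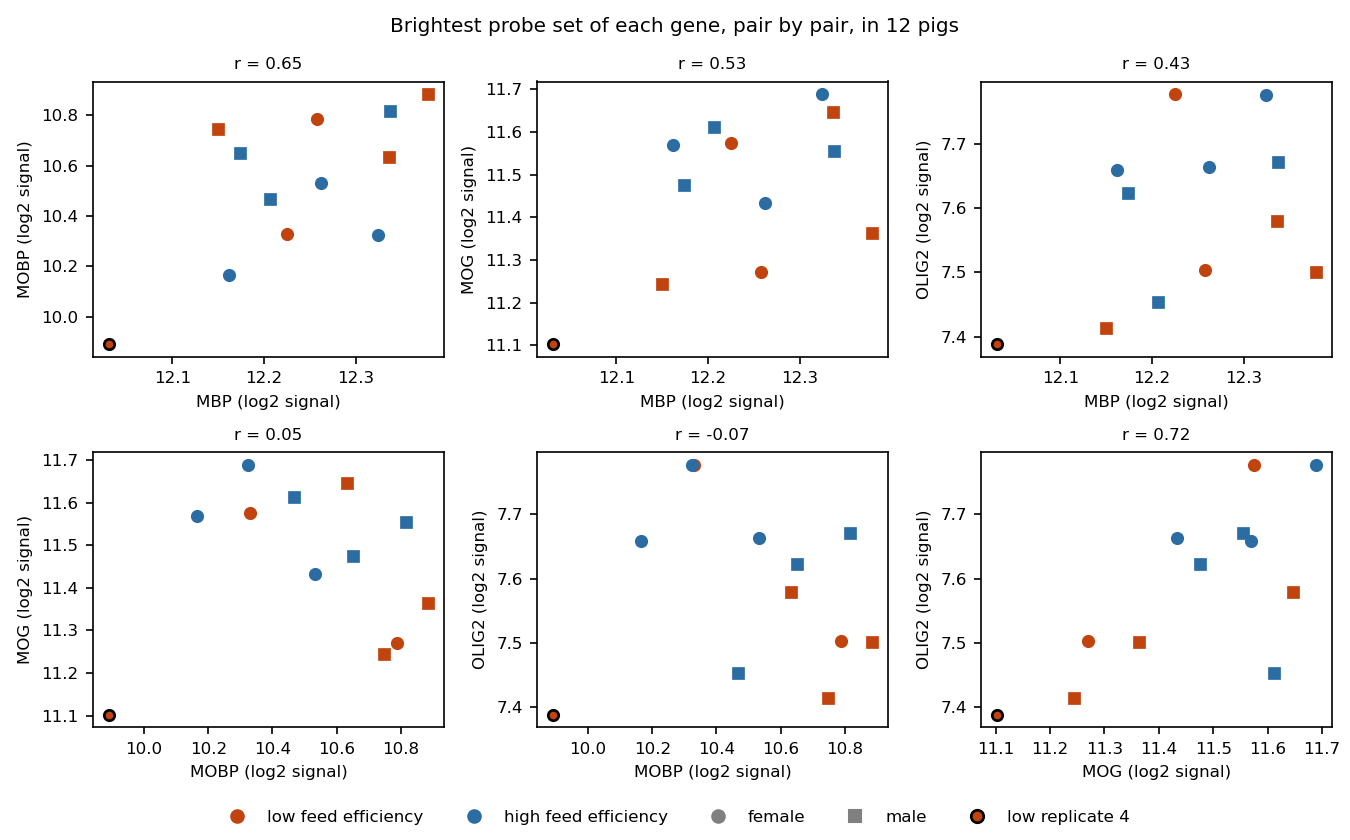
Log2 signal of the brightest probe set of each gene against that of another in 12 pigs, 1 panel per pair with its Pearson r (low feed efficiency red, high feed efficiency blue, circles female, squares male). The pig outlined in black, low feed efficiency replicate 4, lies in the lower left corner of all 6 panels, and without it the 2 panels of MOBP with MOG and with OLIG2 slope downwards.

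The centred signals of the brightest MBP, MOBP and MOG probe sets were averaged into 1 value per pig. They were not scaled to equal spread: their SD was 0.10 for MBP, 0.30 for MOBP and 0.18 for MOG. The r of each with the average was 0.89, 0.84 and 0.56 in that order. Low feed efficiency pigs ran from -0.40 to 0.14 and high feed efficiency pigs from -0.11 to 0.16. The value of -0.40 belonged to low feed efficiency replicate 4, and the other 11 pigs lay between -0.11 and 0.16. Females ran from -0.40 to 0.04 and males from -0.03 to 0.16, which overlapped. The array of low feed efficiency replicate 4 had a mean correlation with the other 11 arrays of 0.980, the highest of the 12. Its interquartile range was 3.83, where the 12 arrays ran from 3.71 to 3.86. Its mean of the background probe sets was 3.56, where they ran from 3.49 to 3.76. Whether a property of this array went with its low myelin signal was not tested. Across pigs the value correlated with the array median at r = -0.082, with the interquartile range at -0.230 and with the mean of the background probe sets at 0.356 (rho = 0.056), as a description over 12 arrays.

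The wider oligodendrocyte programme was read from 6 lists of myelin and oligodendrocyte genes, which held 59 genes beside the 4. Of these, 45 were tested and 14 were not analysed here. In low feed efficiency replicate 4, 17 of the 45 genes had their lowest signal of all 12 pigs, and their median deviation from each gene's mean was -0.19. In the other 11 pigs between 0 and 5 of the 45 had their lowest signal. Over all 12609 named genes, 5.69% had their lowest signal in that same pig, with a median deviation of 0.02. Among genes of other cells, 0 of 10 astrocyte genes, 0 of 9 microglia genes and 2 of 13 neuron genes were lowest there. Which of tissue sampling, cell number and RNA per cell moved with this pig was not tested.

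None of the 45 genes was called between low and high feed efficiency, and 17 were higher and 28 lower in low pigs, with a median difference of -0.04, where 6238 of all 12609 named genes were higher and 6371 lower, with a median of -0.002. Above and below 0, the lists held 2 and 3 genes of compact myelin, 2 and 7 of the sheath surface and axon contact, 2 and 3 of lipid synthesis, 1 and 5 transcription factors, 6 and 6 other mature genes and 4 and 4 of precursors. At an unadjusted p under 0.05 there was 1 of 45, or 2.22%, where the share over all tested probe sets was 6.15%. This was NKX2-2, a transcription factor of the lineage, with a difference of -0.35 ± 0.13 (SE) and an adjusted p of 0.796 by limma. It averaged 3.73, inside the background range. In the compact myelin list the smallest unadjusted p belonged to PLLP, a membrane-organising proteolipid of myelin, at -0.14 ± 0.08 (SE, adjusted p = 0.819, limma). In the surface list it belonged to CNP, an enzyme of the cytoplasmic channels of myelin, at -0.21 ± 0.12 (SE, adjusted p = 0.819, limma). In the lipid list it belonged to UGT8, which makes galactosylceramide, the main glycolipid of myelin, at 0.16 ± 0.12 (SE, adjusted p = 0.847, limma). Among other mature genes FOLH1 differed by 0.21 ± 0.12, and among precursor genes MEGF11 differed by -0.34 ± 0.21 (SE), both with an adjusted p of 0.819 by limma.

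Between the sexes, too, none of the 45 was called, and 20 were higher and 25 lower in females, where 6665 of all named genes were higher and 5944 lower. At an unadjusted p under 0.05 there were 2, or 4.44%, where the share over all tested probe sets was 4.74%. They were KLK6, a secreted protease of mature oligodendrocytes, and GSN, an actin-severing protein. KLK6 averaged lower in females, by a difference of -0.60 with an adjusted p of 0.189 by limma, and GSN differed by -0.28 with an adjusted p of 0.996. Both lay inside the background range, at 5.95 and 7.02.

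The lists were then read for likeness to the mean of MBP, MOBP and MOG across the 12 pigs, as a description without a test. Of the 45 genes 36 correlated above 0 with it and 17, or 37.8%, had an r over 0.5, with a median r of 0.41. Over all other named genes 3.74% had an r over 0.5 and the median was -0.043. Without low feed efficiency replicate 4 the share of the 45 with an r over 0.5 was 22.2%, against 5.41% of all other named genes, and the medians were 0.22 and -0.010.

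MAG, the adhesion molecule of the innermost myelin wrap, was the most alike of the 45, at r = 0.81. KLK6 led the other mature genes at 0.71, and MAL, a raft protein of myelin, led the compact myelin list at 0.70. UGT8 led the lipid list at 0.61, MEGF11 the precursor list at 0.60 and NKX2-2 the transcription factors at 0.50. Of these, MAG and UGT8 lay above the background range and the other 4 inside it. At the other end LHFPL3, a gene of oligodendrocyte precursors, was the lowest of the 45 at r = -0.63. PCDH15, also in the precursor list, had r = -0.40. TSPAN2, a tetraspanin, was the lowest of the compact myelin list at r = -0.36. By list the median r was 0.52 for lipid synthesis, 0.50 for the sheath surface and axon contact, 0.43 for other mature genes, 0.37 for compact myelin, 0.36 for transcription factors and 0.086 for precursors and newly formed oligodendrocytes.

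Single genes of the 4 had different companions in these lists. MBP had a median r of 0.475 with the 45 genes and 22 of them over 0.5, among them TF, the iron carrier transferrin, at 0.85, MAL at 0.81 and MAG at 0.79. MOBP had a median of 0.222 with 7 over 0.5, MOG 0.327 with 9, and OLIG2 0.248 with 10. Without low feed efficiency replicate 4 the medians were 0.365 for MBP, -0.013 for MOBP, 0.162 for MOG and 0.136 for OLIG2. MBP had the highest of the 4 medians with and without that pig, and the median of MOBP was near 0 without it.

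Among lists of other cells, with the mean of the 3 myelin genes, 0 of 13 neuron genes, 0 of 10 astrocyte genes, 0 of 9 microglia genes and 0 of 9 endothelial genes had an r over 0.5, and their medians were -0.056, -0.225, 0.043 and 0.092. The 5 choroid plexus and ependyma genes had a median of 0.274 and the 4 Schwann cell genes 0.107, both with none over 0.5, and these medians, like that of the endothelial genes, were above that of the oligodendrocyte precursor list. Without low feed efficiency replicate 4, an r over 0.5 was found for 2 of 5 choroid plexus and ependyma genes, 1 of 9 microglia genes, 1 of 9 endothelial genes and 1 of 11 hypothalamic neuropeptides and factors, against 0 of 13 neuron genes and 0 of 10 astrocyte genes. Over all 12 pigs, all 10 astrocyte genes were below 0, from SLC1A3, a glutamate transporter, at -0.54 to AQP4, a water channel, at -0.12.

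**Figure D5:**
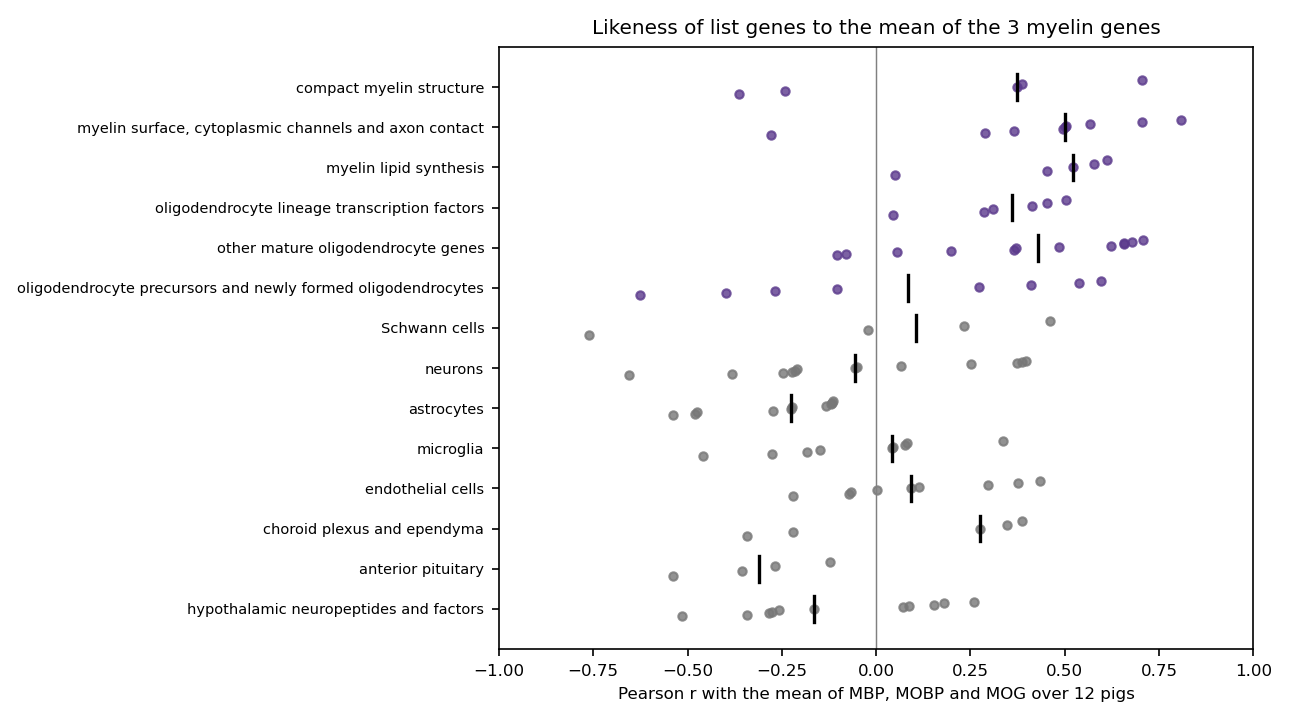
Pearson r over 12 pigs (horizontal axis) of each tested list gene with the mean of MBP, MOBP and MOG; each point is a gene, black bars are list medians, purple marks the 6 oligodendrocyte lists and grey the lists of other cells. The lists of mature myelin genes lie mostly to the right of 0, with medians of 0.37 to 0.52, and the astrocyte genes all lie to the left.

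Among all 12593 candidate genes, the 5 whose signal followed MBP most closely over the 12 pigs were TMEM26, POLR1E, PPP1R14A, TF and BAP1, with r from 0.851 to 0.871. For MOBP they were CTNNA3, MXRA7, STEAP4, NT5M and STOM, with r from 0.832 to 0.902. For MOG they were BIN1, LLGL1, CEP76, ZNF618 and ZAN, with r from 0.828 to 0.861. For OLIG2 they were TRPV2, SH2D6, ssc-mir-199b, SOX8 and SRGAP2, with r from 0.861 to 0.882. The 4 sets of 5 shared no gene. They were picked as the highest of all candidates, so their r is a description and was not tested. Of these genes, only PPP1R14A, TF, BIN1, SOX8 and SRGAP2 had a mean signal above the background range. The mean of MBP, MOBP and MOG was followed most closely by SLC9A5, CTNNA3, MON1B, SLA2, LMF1, FRMD5, RASA3 and IVNS1ABP, with r from 0.832 to 0.877. The signals of these genes averaged 3.98 to 7.11, all inside the background range. The same mean ran most opposite to CCNDBP1, ARPC2, CXCL9, TRNT1, NSUN5, SLC39A9, MYH10 and SPOCK1, with r from -0.898 to -0.804. Of these, ARPC2, SLC39A9, MYH10 and SPOCK1 lay above the background range and the others inside it.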

How the data were processed

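Each value was the log2 signal of a probe set on an array, as deposited by the authors. The log2 scale was read from the value range. GCOS 1.1.1 is named per the submitters' processing notes; background correction, summary method and normalization were not given in the sources used here. Of 47845 rows, 123 controls and the 25% of lowest mean were left out, leaving 35791. Symbols came from the platform annotation. limma 3.58.1 in R 4.3.3 fitted feed efficiency and sex together (Benjamini-Hochberg over 35791, threshold 0.05) and the interaction from the 4 groups, and was tested on simulated data. SE is limma's. Labels give each array its own pig. Correlations used 100000 two-sided permutations, or all 720 arrangements of 6 pigs. Named were all member probe sets; per list the genes of smallest unadjusted p, highest and lowest r (at most 4); for sex the 2 of smallest p; and the most alike genes, without symbols on more than 10 probe sets. The members and lists were chosen with earlier results of these data known. Alternatives covered dim filters, normalization, array weights, identifier run and each pig left out.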

Additional observations from a re-analysis of the deposited data

Results flagged for a closer look

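In 28 groups of 6 pigs, the low and high feed efficiency groups of the 14 member probe sets, the highest and lowest pig were compared with the rest, and 1 stood apart. SNOWBALL_027269_st of MBP read 4.05 in low feed efficiency replicate 5, a female, while the nearest of the other 5 low pigs read 4.45. That gap was 0.772 of the group's whole range, above Dixon's limit of 0.625, which chance passes in about 1 of 20 groups. The probe set lies inside the background range.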

How the results depend on the processing

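No member probe set was called for feed efficiency, sex or their interaction under any alternative run, with adjusted p from 0.517 to 1.000 for feed efficiency and from 0.936 to 1.000 for sex. Between feed efficiency groups, the tested probe sets as a whole gave 1 call without low feed efficiency replicate 2. Between the sexes they gave 2 calls under the 50% filter on dim probe sets, against 8. The identifier run was also added as a term, a setting read for feed efficiency only. Each run holds as many low as high pigs of each sex, so this term could not move the differences themselves. It could change only their SE and p, and for the brightest MOG probe set the SE was 0.10 (limma, adjusted p = 0.820). No paired analysis was possible because the replicate numbers follow the order of deposit and the labels pair no pigs.

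Differences near 0 changed sign. Low minus high feed efficiency for the brightest MBP probe set was 0.0073 with equal array medians, and female minus male for MBP SNOWBALL_026357_st was -0.0080 after quantile normalization and -0.0058 with equal medians. With each pig left out in turn, low minus high ran from -0.042 to 0.024 for the brightest MBP probe set, -0.022 to 0.11 for MBP SNOWBALL_028905_st, -0.041 to 0.16 for MOBP SNOWBALL_029596_st and -0.51 to 0.074 for MOG SNOWBALL_001055_st. Female minus male ran from -0.094 to 0.015 for the brightest MOG probe set, -0.54 to 0.046 for MOG SNOWBALL_001055_st and -0.38 to 0.16 for OLIG2 SNOWBALL_028139_st. For MBP it ran from -0.087 to 0.078 for SNOWBALL_026357_st, -0.012 to 0.11 for SNOWBALL_027269_st, -0.056 to 0.087 for SNOWBALL_028905_st and -0.11 to 0.054 for SNOWBALL_029083_st.

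The correlations between genes depended more on the setting. After quantile normalization MBP with MOBP had r = 0.790 and MOG with OLIG2 had r = 0.762, and both passed (permutation test, adjusted p = 0.00771 each), while MOBP with OLIG2 had r = 0.022. The rank correlation of MOBP with MOG was -0.280, and without the 2 pigs farthest from the MOBP median r was -0.661. From residuals after the 4 group means, MOBP with OLIG2 had r = 0.289. Between second brightest probe sets, r was -0.326 for MBP with OLIG2 and -0.605 for MOG with OLIG2. The OLIG2 and MOG probe sets of these pairs lay inside the background range. With each pig left out, r ran from 0.393 to 0.773 for MBP with MOBP, 0.616 to 0.869 for MOG with OLIG2, -0.626 to 0.153 for MOBP with MOG and -0.573 to 0.031 for MOBP with OLIG2. MBP with MOBP passed when low feed efficiency replicate 1, or replicate 3 or 6 of the high group, was left out, at r of 0.773, 0.703 and 0.757. MOG with OLIG2 passed when low feed efficiency replicate 3, or replicate 1 or 3 of the high group, was left out, at r of 0.760, 0.869 and 0.717. The lowest value of these 4 pairs came without low feed efficiency replicate 4, and the causes were not tested.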
